A study of Mus musculus with 44 samples.

Results

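The STEAP metalloreductases were examined in fibroblasts sorted from mammary glands and mammary tumors. The family was selected by gene symbol, and all 4 members (Steap1, Steap2, Steap3 and Steap4) were found among the 55486 genes of the count table and passed the filter on low counts. They were selected with their CPM (read counts scaled to a common library size) by mouse and CD26 class in view. Differences of the 4 genes between CD26 classes and between tumor and control are therefore given as descriptions, with a fold and its standard error (SE) and without a test.

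STEAP proteins are membrane proteins that pass electrons from the cytosol across the membrane through a heme group to reduce ferric iron and cupric copper, since cells take up these metals mainly in their reduced form. Steap3 is the ferrireductase of endosomes, where iron released from transferrin is reduced before it enters the cytosol. Steap2 and Steap4 also reduce iron and copper, and Steap4 is known from adipose tissue and from inflammation. Steap1 lacks the NADPH-binding part of the other members and is best known as a surface antigen of prostate tumors.

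All recipients were female EN1-Cre;mTmG mice, from En1-Cre mice crossed for a few generations to mTmG mice on FVB/n, in which Cre marks cells of the Engrailed-1 (En1) lineage with GFP and other cells carry tdTomato. They were transplanted as juveniles, without clearing of the fat pad, with mammary tissue from control donors (mice without WapCre that carried other floxed alleles than the tumor donors), from WB1P donors (WapCre;Brca1 F/F;Trp53 F/F) or from WB1P-Myc donors (the WB1P alleles with Col1a1 invCAG-Myc-IRES-Luc added), in which WapCre acts in mammary epithelium. EpCAM-/CD49f-/CD31-/CD45- cells were sorted by En1 lineage and by CD26, the surface peptidase encoded by Dpp4, and fibroblasts from control glands are called normal fibroblasts (NFs) and those from tumors cancer-associated fibroblasts (CAFs). The 44 libraries came from 13 mice: mice 1 to 3 received control tissue, mice 4 to 8 WB1P tissue and mice 9 to 13 WB1P-Myc tissue. Each control mouse carries a pair of numbers in its label and may be a pool, mice 12 and 13 are marked 8x8, and the other tumors were end-stage.

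Counts were summed per mouse and CD26 class. This gave 25 sums: 3 CD26- and 3 CD26+ sums of control, 5 and 4 of WB1P, and 5 and 5 of WB1P-Myc. Of these, 19 hold both En1 classes and 6 hold 1 library. The CD26- sum of mouse 4 holds only En1-lineage cells, and the CD26- sums of mice 9 and 11 only other cells. The CD26+ sums of mice 6, 10 and 11 hold only En1-lineage cells. Library totals ran from 5790599 to 15240328 counts. Dpp4 was at 0.62 to 15.3 CPM in CD26- sums and at 234 to 805 CPM in CD26+ sums. The CD26 sort thus held in every mouse with both classes, and WB1P mouse 4 has no CD26+ sum. The 7 fibroblast markers were all detected, and summed to between 19899.6 and 56841.5 CPM, mostly from Col1a1 and Col1a2. In CD26- WB1P CAFs the means of Pdgfra, Dcn and Lum were below those of CD26- NFs. They were 424 against 1451.7 CPM, 1015.8 against 4580.5 CPM and 696 against 2320.8 CPM. The means of Col1a1, Col1a2, Pdgfrb and Pdpn were above those of the NFs. Summed epithelial (6.14 to 196 CPM), immune (23.2 to 264 CPM), endothelial (20 to 91.2 CPM), adipocyte (0.328 to 41.7 CPM), Schwann cell (4.83 to 57.7 CPM) and erythroid (0.0 to 3.98 CPM) markers were low beside them. Epithelial and immune sums reached 196 and 264 CPM, above the highest Steap1 level of 22.8 CPM. Epcam had means of 21.2 and 19.5 CPM in CD26- and CD26+ WB1P CAFs, against 6.6 and 3.98 CPM in NFs. In WB1P-Myc CAFs its means were 8.13 and 3.6 CPM. Cd3e had means of 67.2 and 71.1 CPM in CD26+ CAFs of WB1P and WB1P-Myc, against 5.45 and 10.6 CPM in CD26- CAFs. In CD26+ NFs it reached 22.5 CPM at most. Other immune markers went the other way. Ptprc, Cd68, Lyz2, Cd74, Csf1r, Adgre1 and Itgam had lower means in CD26+ than in CD26- CAFs of both models. For Ptprc the means were 1.21 against 3.22 CPM in WB1P and 1.49 against 4.27 CPM in WB1P-Myc. Cd79a differed in direction between the models. The part of epithelial and immune cells in Steap1 and other genes at low levels was not tested. Pericyte markers differed between groups and are given beside Steap4. Their part in the CD26- differences of Steap1, Steap2 and Steap3 was not tested. In such sorted bulk samples, fewer cells that express a gene and less RNA per cell cannot be told apart.

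Steap1 (chr5:5736317-5749326, minus strand), Steap2 (chr5:5664829-5694578, minus strand) and Steap4 (chr5:7960457-7982213, plus strand) lie on one chromosome in build GRCm38, and Steap3 lies on another (chr1:120190757-120272705, minus strand). No other gene of the table overlaps any of them. RefSeq (GRCm38.p6) gives 9 promoter windows for the family, each from 250 bases before to 50 bases after an annotated start: 1 for Steap1, 3 for Steap2, 4 for Steap3 and 1 for Steap4. The 2 windows printed here belong to the genes with the largest difference between CAFs and NFs (Steap1) and with opposite CD26 differences in NFs and WB1P CAFs (Steap4). Capitals mark matches to the STAT motif TTCNNNGAA and the TATA box TATAAA on either strand, and both windows read 5′ to 3′ along the gene.
Steap1, chr5:5749268-5749567, minus strand: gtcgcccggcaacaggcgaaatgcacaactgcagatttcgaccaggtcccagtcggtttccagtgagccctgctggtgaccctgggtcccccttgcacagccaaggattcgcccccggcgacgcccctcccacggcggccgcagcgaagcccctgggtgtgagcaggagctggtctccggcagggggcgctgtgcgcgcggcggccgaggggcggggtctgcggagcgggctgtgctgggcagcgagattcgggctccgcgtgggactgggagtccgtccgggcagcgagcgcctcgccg
Steap4, chr5:7960222-7960521, plus strand: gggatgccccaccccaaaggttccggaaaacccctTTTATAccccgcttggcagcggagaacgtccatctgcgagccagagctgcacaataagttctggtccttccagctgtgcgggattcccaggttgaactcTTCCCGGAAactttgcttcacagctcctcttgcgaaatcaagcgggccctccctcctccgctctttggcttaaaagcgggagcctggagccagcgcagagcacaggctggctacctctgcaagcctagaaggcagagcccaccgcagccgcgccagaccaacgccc
In the Steap4 window TTCNNNGAA began at position -116 from the start, TATAAA was on the opposite strand at -215, and the C/EBP motif TTGCNNAA was at -87. The Steap1 window held a GC box (GGGCGG) at -41 and none of those 3 motifs. Of 32851 windows of this length, 8.3% held TTCNNNGAA, 13.6% TATAAA, 10.8% TTGCNNAA and 35.7% GGGCGG. Among the windows not printed, TTCNNNGAA matched in a Steap2 window (-135) and TATAAA in another Steap2 window (-209, opposite strand). TTGCNNAA matched in a Steap3 window (-223, opposite strand), and windows of Steap2 and Steap3 also held GC boxes. The AP-1 motif TGANTCA (7.8% of windows) matched in none of the 9 windows, and the hypoxia response core ACGTG (19.6%) matched in 1, of Steap2. The motifs were picked after the windows had been read, and a match is a description of letters only.

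Steap1 was near the detection limit in NFs and was found in every CAF sum. In CD26- NFs, Steap1 was at 0.544, 0.292 and 0.0994 CPM in mice 1 to 3, from 15, 8 and 3 counts. In CD26+ NFs it was at 0.753, 0.755 and 0.773 CPM, from 19, 20 and 24 counts. All 3 control mice were thus below 1 CPM in both classes. In CD26- CAFs, Steap1 was at 7.36, 8.58, 6.41, 8.37 and 11.0 CPM in WB1P mice 4 to 8, and at 4.51, 8.41, 5.81, 7.24 and 11.2 CPM in WB1P-Myc mice 9 to 13. In CD26+ CAFs it was at 15.4, 22.8, 18.2 and 15.6 CPM in WB1P mice 5 to 8, and at 12.5, 13.5, 12.2, 16.6 and 9.64 CPM in WB1P-Myc mice 9 to 13. Every CAF sum lay above every NF sum of its class. The log2 fold of CAFs over NFs, with both tumor models weighted equally, was 4.65 ± 0.38 (SE) in CD26- and 4.31 ± 0.36 in CD26+ cells. The first of these rests on few counts, and without control mouse 1 it was 5.31, a 39.7-fold in place of a 25.2-fold difference. Between the tumor models the log2 fold of WB1P-Myc over WB1P was -0.16 ± 0.25 in CD26- and -0.48 ± 0.26 in CD26+ CAFs, and the ranges overlapped in both classes.

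Steap2 was also higher in CAFs, from a measurable level in NFs and with little difference between CD26 classes. NFs held 15.0 to 21.3 CPM in CD26- and 19.5 to 20.4 CPM in CD26+ sums (n = 3 each). CD26- CAFs held 46.0, 54.3, 65.6, 67.4 and 83.9 CPM in WB1P mice 4 to 8, and 25.5, 70.2, 31.5, 62.1 and 47.9 CPM in WB1P-Myc mice 9 to 13. CD26+ CAFs held 62.8, 37.3, 65.9 and 72.3 CPM in WB1P mice 5 to 8, and 55.6, 53.4, 39.3, 74.5 and 44.8 CPM in WB1P-Myc mice 9 to 13. No CAF sum reached down to an NF sum of its class, although WB1P-Myc mouse 9 came close in CD26- cells. The log2 fold over NFs was 1.53 ± 0.28 in CD26- and 1.5 ± 0.28 in CD26+ cells. Steap2 was the member most like Steap1 over the 25 sums (Pearson r of log2 CPM 0.857), a description in which both CD26 classes of a mouse are counted and in which the distance between NFs and CAFs weighs heavily.

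Steap3, the endosomal reductase, was the one member lower in CAFs in both classes. In NFs it was at 376, 410 and 355 CPM in CD26- and at 476, 641 and 586 CPM in CD26+ cells of mice 1 to 3. In CD26- CAFs it was at 153 to 265 CPM in WB1P (median 237, n = 5) and at 168 to 312 CPM in WB1P-Myc (median 212, n = 5). In CD26+ CAFs it was at 326 to 427 CPM in WB1P (median 377, n = 4) and at 364 to 460 CPM in WB1P-Myc (median 399, n = 5). Each CAF range ended below the NF range of the same class, while the CD26+ CAFs of both tumor models overlapped the CD26- NFs. The log2 fold of CAFs over NFs was -0.74 ± 0.16 in CD26- and -0.54 ± 0.17 in CD26+ cells, a far smaller difference than that of Steap1.

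Among CD26+ cells, Steap4 was higher in CAFs of both models than in NFs, and among CD26- cells it was lower in WB1P CAFs. In CD26- NFs, Steap4 was at 159, 320 and 168 CPM in mice 1 to 3. In CD26+ NFs it was at 81.0, 78.2 and 78.4 CPM. CD26+ NFs were thus below CD26- NFs without overlap. In CD26- CAFs, Steap4 was at 36.0, 154, 71.0, 80.9 and 90.8 CPM in WB1P mice 4 to 8, and at 154, 251, 156, 84.2 and 278 CPM in WB1P-Myc mice 9 to 13. In CD26+ CAFs it was at 283, 167, 275 and 276 CPM in WB1P mice 5 to 8, and at 268, 160, 201, 377 and 254 CPM in WB1P-Myc mice 9 to 13. All 9 CD26+ CAF sums were above the CD26+ NFs, whereas in CD26- cells the WB1P sums lay below the NFs and the WB1P-Myc sums overlapped them. Both tumor models were set against the same 3 control mice. In CD26+ cells the log2 fold over NFs was 1.66 ± 0.42 for WB1P and 1.67 ± 0.40 for WB1P-Myc. In CD26- cells it was -1.31 ± 0.37 for WB1P and -0.22 ± 0.38 for WB1P-Myc. The latter turned to 0.19 without control mouse 2, which held the highest NF value. In CD26- CAFs the tumor models differed by a log2 fold of 1.09 ± 0.33, higher in WB1P-Myc, with ranges that overlapped, and in CD26+ CAFs by 0.01 ± 0.35. The CD26- sums also differ in En1 class, with only En1-lineage cells in WB1P mouse 4 and none in WB1P-Myc mice 9 and 11. The part of this imbalance was not tested.

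**Figure D1:**
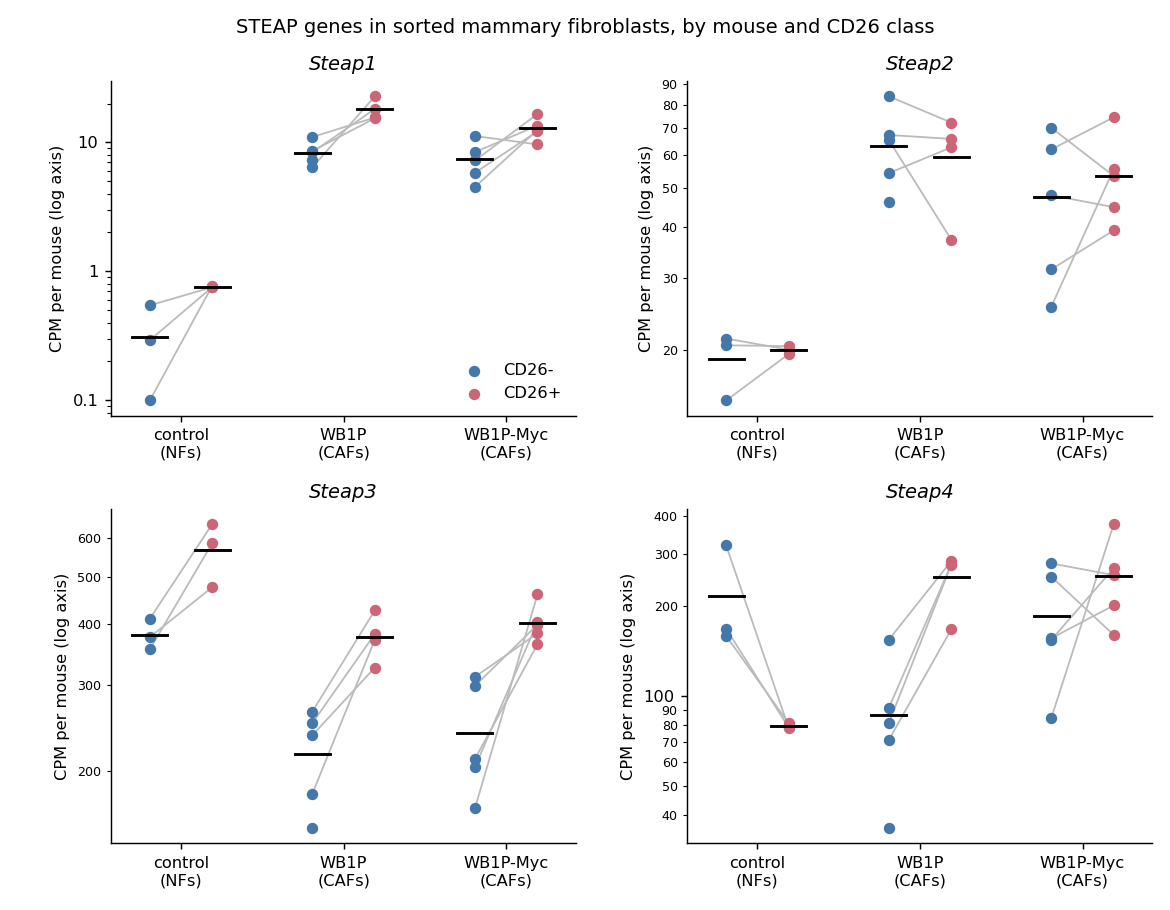
CPM of each STEAP gene (log axis) in CD26- (blue) and CD26+ (red) fibroblasts, where each point is 1 mouse, gray lines join both classes of a mouse and black bars are group means. Steap1 and Steap2 lie higher in CAFs, Steap3 lies lower in CAFs of the same class, and the lines of Steap4 go down in all 3 control mice and up in all 4 WB1P mice.

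The CAF and NF ranges did not overlap for 3 of 4 members in CD26- and for 4 of 4 in CD26+ cells. Over all 16601 genes tested, this held for 25.1% in CD26- and 25.2% in CD26+ cells. As the members were selected with these values known, nothing is read from that count.

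**Figure D2:**
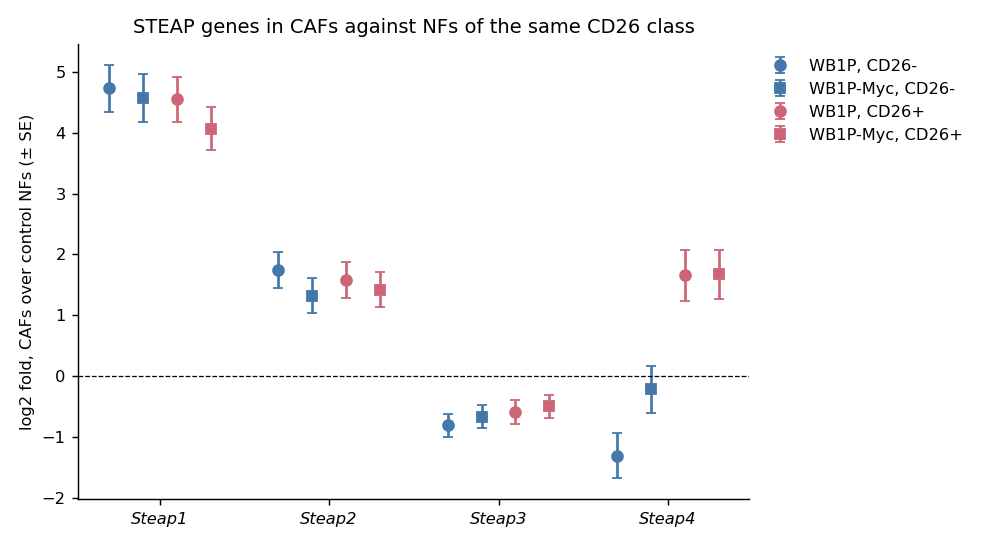
Log2 fold of WB1P (circles) and WB1P-Myc (squares) CAFs over control NFs of the same CD26 class (blue CD26-, red CD26+), with bars of 1 SE from the edgeR fit. Steap1 is near 4 to 5 in all comparisons, and only Steap4 has folds below 0 in CD26- and above 0 in CD26+ cells, where its CD26- value for WB1P-Myc lies within 1 SE of 0.

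Both CD26 classes of a mouse were then compared. Steap3 was higher in CD26+ than in CD26- cells in all 3 control mice (ratios 1.26 to 1.65) and in 9 of 9 tumor-bearing mice with both classes (1.23 to 2.75). Steap1 was higher in CD26+ cells in all 3 control mice (1.38 to 7.78) and in 8 of 9 tumor-bearing mice (0.861 to 3.56). The highest Steap1 ratio, of control mouse 3, stands on 3 counts in its CD26- sum. Steap2 showed no common direction, with CD26+ cells higher in 1 of 3 control and 4 of 9 tumor-bearing mice.

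The Steap4 ratio of CD26+ over CD26- cells was 0.509, 0.245 and 0.465 in control mice 1 to 3. It was 1.83, 2.36, 3.40 and 3.03 in WB1P mice 5 to 8. It was 1.74, 0.637, 1.29, 4.47 and 0.912 in WB1P-Myc mice 9 to 13. Every control mouse was thus below 1 and every WB1P mouse above 1, while the WB1P-Myc mice fell on both sides. The fitted log2 fold of CD26+ over CD26- was -1.45 ± 0.43 in NFs, 1.53 ± 0.35 in WB1P and 0.45 ± 0.33 in WB1P-Myc CAFs, and the CAF fold exceeded the NF fold by 2.43 ± 0.50. The same difference between CAF and NF folds was -0.34 ± 0.43 for Steap1, -0.03 ± 0.36 for Steap2 and 0.20 ± 0.24 for Steap3.

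**Figure D3:**
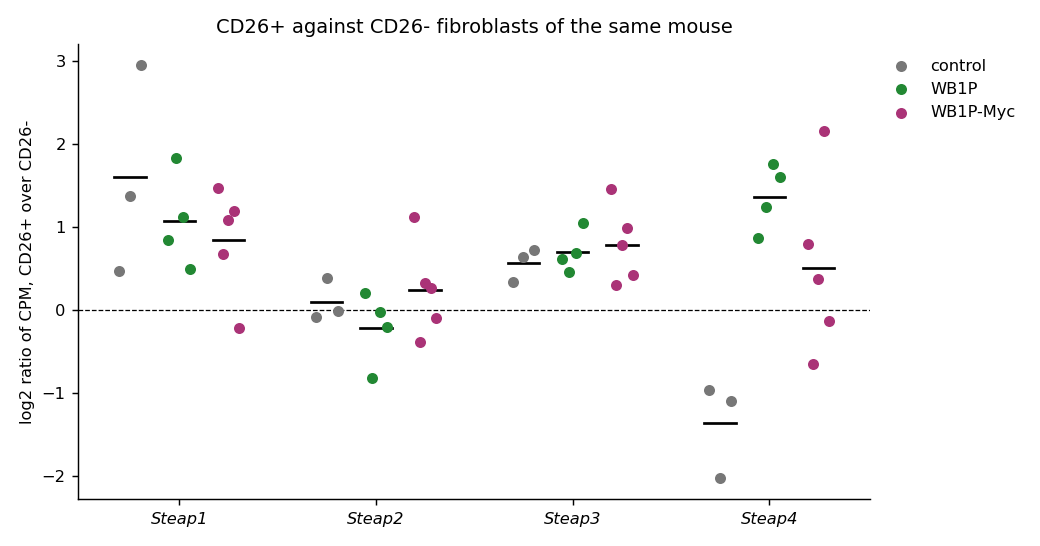
Log2 ratio of CPM in CD26+ over CD26- fibroblasts of the same mouse, where each point is 1 mouse with both classes (gray control, green WB1P, purple WB1P-Myc), black bars are means and the dashed line marks equal levels. Steap3 is above 0 in every mouse, and Steap4 is below 0 in the 3 control mice and above 0 in the 4 WB1P mice.

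The CD26+ and CD26- ranges did not overlap for 3 of 4 members in NFs, for 3 of 4 in WB1P and for 1 of 4 (Steap3) in WB1P-Myc CAFs. The share over all genes tested was 19.9% in NFs, 21.9% in WB1P and 14.7% in WB1P-Myc, and these counts too only describe members that were selected on such values.

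Pericytes, the mural cells of small vessels, can express Steap4, and no sorting marker removes them. The 10 pericyte markers summed to 222 to 405 CPM in CD26- NFs and 173 to 192 CPM in CD26+ NFs. In CD26- CAFs they summed to 1966.5 to 5657.8 CPM in WB1P and 2502.6 to 9627.6 CPM in WB1P-Myc, and in CD26+ CAFs to 240 to 455 CPM and 211 to 362 CPM. Rgs5, a defining pericyte gene, had means of 27.9 CPM in CD26- NFs and 5.81 CPM in CD26+ NFs. In WB1P its mean was 1030.5 CPM in CD26- CAFs and 2.71 CPM in the CD26+ class. In WB1P-Myc these means were 2068.8 and 5.93 CPM. Some other markers of the list differed from Rgs5 in CD26+ cells. From NFs to WB1P CAFs, the means were 2.71 and 102 CPM for Ndufa4l2 and 11.2 and 38.7 CPM for Kcnj8. They were 18.7 and 52.2 CPM for Cspg4 and 80.5 and 148 CPM for Abcc9, but 59.3 and 12.0 CPM for Notch3. Mcam (3.06 and 5.3 CPM), Des (0.971 and 1.16 CPM), Cox4i2 (0.447 and 1.55 CPM) and Higd1b (0.0107 and 0.00971 CPM) stayed low in CD26+ cells. In CD26- WB1P CAFs the means of these markers were 469, 68.0, 13.6 and 16.5 CPM. Ndufa4l2 had a mean of 106 CPM in CD26- WB1P CAFs. The WB1P CD26- sum with the highest pericyte level (5657.8 CPM, mouse 4) had the lowest Steap4 of all (36.0 CPM). That sum holds 1 library, of En1-lineage cells. The highest pericyte level of all, in CD26- cells of WB1P-Myc mouse 9 (9627.6 CPM), came with 154 CPM of Steap4. By group, CD26- CAFs of WB1P-Myc were above those of WB1P in both. The median pericyte sum was 4464.7 against 2586.3 CPM, and mean Steap4 was 185 against 86.7 CPM. The CD26+ CAFs had 160 to 377 CPM of Steap4 at 211 to 455 CPM of pericyte markers. In NFs both were higher in CD26- cells, and mouse 2 had the highest of both. The part of pericytes in the Steap4 differences was not tested.

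**Figure D4:**
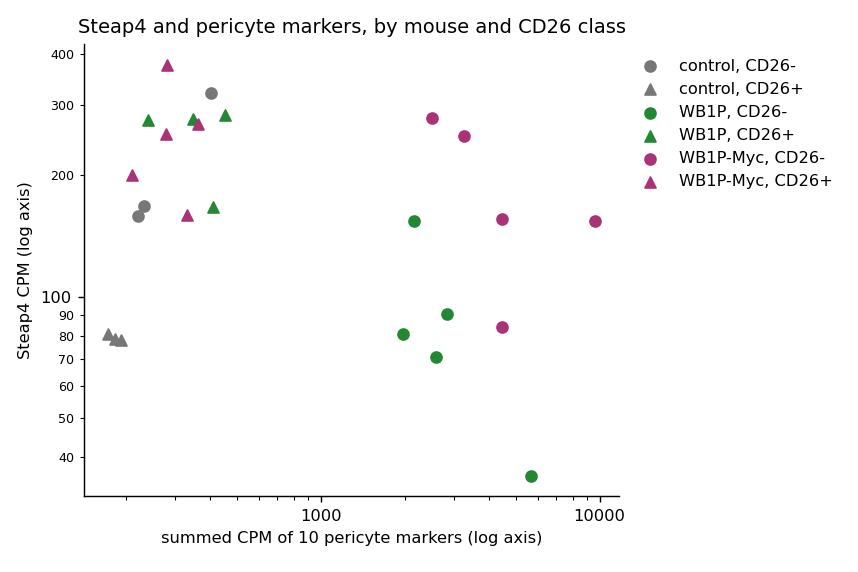
Steap4 CPM against the summed CPM of 10 pericyte markers (both log axes), where each point is 1 mouse and CD26 class (circles CD26-, triangles CD26+, colors by transplanted tissue). CD26- CAFs lie at the right, from 1966.5 to 9627.6 CPM of pericyte markers, with Steap4 from 36.0 to 278 CPM.

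In the order of group means, few neighbors were separate. For Steap1, the 4 CAF groups (means 18.0, 12.9, 8.35 and 7.43 CPM) each overlapped the next, then came CD26+ NFs (0.760 ± 0.0109 CPM, SD, n = 3) and CD26- NFs (0.312 ± 0.223 CPM, SD, n = 3), each apart from the group above. For Steap2 all CAF groups overlapped their neighbors, as did both NF groups, with a gap between CAFs and NFs. For Steap3, CD26+ NFs (567 ± 83.9 CPM, SD, n = 3) stood apart at the top, and the CD26- CAFs of both models stood apart at the bottom (239 ± 63.3 and 217 ± 48.1 CPM, SD, n = 5 each). For Steap4 every group overlapped the next, from WB1P-Myc CD26+ CAFs (252 ± 82.0 CPM, SD, n = 5) to CD26+ NFs (79.2 ± 1.56 CPM, SD, n = 3).

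Levels of different members were compared per kilobase of exon (CPM per kb). Steap3 and Steap4 were the most abundant members in all 6 groups, at 38.0 to 99.3 and 25.1 to 79.8 CPM per kb by group mean. Steap1 was the lowest member in NFs, at 0.226 CPM per kb in CD26- and 0.552 CPM per kb in CD26+ cells, beside 1.56 and 1.64 CPM per kb of Steap2. In CD26+ CAFs Steap1 was above Steap2, with 13.1 against 4.91 CPM per kb in WB1P and 9.37 against 4.41 CPM per kb in WB1P-Myc, and their ranges were apart. In CD26- CAFs the means had the same order (6.06 against 5.23 and 5.40 against 3.91 CPM per kb), but the ranges overlapped. Steap4 exceeded Steap3 in CD26+ CAFs of WB1P (79.3 ± 17.5 against 65.9 ± 7.20 CPM per kb, SD, n = 4) by less than the spread between mice. In CD26- NFs, Steap4 was above Steap3 by exon length (68.4 against 66.6 CPM per kb) and below it by the longest transcript (68.4 against 73.8 CPM per kb).

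The En1 lineage was not used to select the members, and its comparison within each CD26 class was tested on single libraries over 15584 genes. None of the 4 members passed the test between En1-lineage and other cells (edgeR quasi-likelihood test, adjusted p = 1.0 for each member in each class). The tested fold is a mean over control, WB1P and WB1P-Myc, and no condition was tested alone. At the same threshold the test called 0.00642% of all genes in CD26- and 0.0128% in CD26+ cells, which is 1 and 2 genes, against 537 and 280 genes at an unadjusted p below 0.05. DESeq2 called 16 and 4 genes and no member. The largest member difference was that of Steap4 in CD26- cells, with a log2 fold of -0.31 ± 0.22 (SE) in En1-lineage cells, which were lower in 9 of 10 mice. In WB1P, Steap4 was at 65.3 ± 36.2 CPM (SD, n = 5) in En1+ and at 126 ± 34.8 CPM (SD, n = 4) in double- libraries, with overlapping ranges. Within WB1P mice 5 to 8 it was lower in En1+ each time. The values were 127 against 175, 45.6 against 94.6, 50.6 against 115 and 66.6 against 118 CPM. The exception among all mice was WB1P-Myc mouse 13, with 336 against 229 CPM. In CD26+ cells the Steap4 log2 fold was -0.11 ± 0.23. The other members had log2 folds between -0.17 and 0.06 in either class. En1 itself was higher in En1-lineage libraries in 10 of 10 mice (CD26-) and 9 of 9 mice (CD26+), by log2 folds of 0.95 ± 0.26 (adjusted p = 0.395) and 0.87 ± 0.27 (adjusted p = 1.0).

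Libraries of 1 mouse pair the En1 classes, and with mouse as a replicate block the share of genes called was 0.205% in CD26- and 0.0385% in CD26+ cells. En1 then passed the test, with 1.03 ± 0.12 (adjusted p = 0.000116) in CD26- and 0.89 ± 0.12 (adjusted p = 0.000489) in CD26+ cells. The members still did not, and Steap4 in CD26- cells had a blocked log2 fold of -0.34 ± 0.21 (adjusted p = 0.803).

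The genes on either side of the chromosome 5 members were also compared. Between Steap2 and Steap4 lie 23 other genes of the table, of which 1 passed the filter, the processed pseudogene Gm15459. It did not differ between CAFs and NFs, with log2 folds of 0.09 ± 0.17 in CD26- (edgeR adjusted p = 0.713) and 0.14 ± 0.18 in CD26+ cells (0.540), and as a pseudogene it may share reads with its parent gene. Cfap69, a gene of motile cilia and flagella next to Steap2, rose in CD26- CAFs from 1.72 to 6.24 CPM (log2 fold 1.83 ± 0.28, edgeR adjusted p = 3.02e-05), and in CD26+ CAFs its log2 fold was 0.54 ± 0.26 (0.106, and 0.019 with libraries as units). Sri, which encodes the calcium-binding protein sorcin and follows Steap4, rose in CD26+ CAFs by a log2 fold of 0.47 ± 0.11 (edgeR adjusted p = 0.00163) and had 0.24 ± 0.10 in CD26- CAFs (0.0643), where it passed without WB1P mouse 5 (0.041), without control mouse 2 (0.0412) and with libraries as units (0.00587).

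The genes whose pattern over the 25 sums was most like a member were found by Pearson r of log2(CPM + 0.5), which is a description. For Steap1 these were Tnfrsf23, a decoy receptor of the TNF receptor family (r = 0.965), Brk1, a subunit of the WAVE complex (0.957), and P4ha3, a subunit of the prolyl hydroxylase of collagen (0.956). For Steap2 they were Bfar (0.936), Ddb1, a subunit of a ubiquitin ligase (0.928), and Mdfic (0.927). For Steap3 they were Arhgap20, a GTPase-activating protein (0.952), the splicing regulator Nova1 (0.949) and Klhl13 (0.938). Nova1 had means of 93.6 and 318 CPM in CD26- and CD26+ NFs and of 32.8 and 158 CPM in CAFs. Steap4 had the weakest likeness, to genes of secreted factors: Fgf7 (0.853), Cxcl12 (0.835) and Igf1 (0.823). Igf1 had means of 390 and 239 CPM in CD26- and CD26+ NFs and of 305 and 521 CPM in CAFs, the same crossing as Steap4.

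Iron and copper genes were tested as a list of 49, of which 46 passed the filter and Frrs1l, Ftmt and Hamp did not. In CD26- CAFs 9 rose and 10 fell against NFs, with 20.4% of all genes called higher and 21.0% lower (edgeR quasi-likelihood test, adjusted p under 0.05 over all genes). In CD26+ CAFs 13 rose and 7 fell, with 20.1% and 21.1% of all genes. The median log2 fold of the list was -0.11 and 0.10, beside 0.01 and -0.00 over all genes. Of CD26+ against CD26- CAFs, 19 were higher and 5 lower, with 19.1% and 19.9% of all genes and a median of 0.20 beside 0.01. The list was chosen with earlier results of these data known, so nothing about the list as a whole is read from its counts. The pericyte levels given above differed between CD26- NFs (222 to 405 CPM) and CD26- CAFs (1966.5 to 9627.6 CPM) and between the CD26 classes of CAFs, and their part in these counts was not tested.

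Among iron uptake genes, 3 rose and 3 fell in CD26- CAFs and 4 rose and 2 fell in CD26+ CAFs, of 14. Tfrc, the transferrin receptor that feeds the endosomal cycle of Steap3, had log2 folds of 0.22 ± 0.33 (edgeR adjusted p = 0.623) and 0.11 ± 0.34 (0.811). Slc11a2 (DMT1), which carries the reduced iron out of the endosome, had 0.34 ± 0.33 (edgeR adjusted p = 0.423) and 0.44 ± 0.34 (0.310). Neither passed in either class. Tfr2, the second transferrin receptor, rose in CD26- CAFs from 0.423 ± 0.0566 CPM (SD, n = 3) to 15.5 ± 7.29 CPM (SD, n = 10). Its log2 fold was 5.08 ± 0.48 there (edgeR adjusted p = 6.01e-08) and 4.31 ± 0.49 in CD26+ CAFs (1.61e-06), and it was lower in CD26+ than in CD26- CAFs (-1.79 ± 0.24, 3.96e-06). Slc39a14 (ZIP14), which imports iron that is not bound to transferrin, rose by 1.30 ± 0.26 in CD26- (edgeR adjusted p = 0.000524) and by 2.30 ± 0.28 in CD26+ CAFs (4.11e-06). Lcn2, a secreted protein that binds siderophores, rose by 2.85 ± 0.78 in CD26+ CAFs (edgeR adjusted p = 0.00612) and by 1.97 ± 0.72 in CD26- CAFs (0.0328). The Lcn2 call in CD26- cells was lost in 6 of 19 alternatives, among them leaving out control mouse 1, 2 or 3, WB1P mouse 8 or WB1P-Myc mouse 12 (adjusted p 0.054 to 0.142).

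Of 7 genes listed as other ferric reductases of the cytochrome b561 family, 6 passed the filter (all but Frrs1l), and 4 rose and 2 fell in CD26- CAFs. Being listed does not imply reductase activity. Cybrd1, the reductase of dietary iron, fell there from 6.95 ± 2.66 CPM (SD, n = 3) to 1.78 ± 0.875 CPM (SD, n = 10), with a log2 fold of -1.96 ± 0.36 (edgeR adjusted p = 0.000202), and had -0.08 ± 0.41 in CD26+ cells (0.894). Cyb561, a transmembrane electron carrier of secretory vesicles, rose in CD26- CAFs (1.95 ± 0.45, edgeR adjusted p = 0.00147) and had 0.90 ± 0.41 in CD26+ CAFs (0.0858), where it passed with the groups compared alone (0.044) and with libraries as units (0.00899). In CD26+ CAFs 2 of the 6 rose and 1 fell.

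Of iron storage and export genes, none rose and 4 fell in CD26- CAFs, and 2 rose and 3 fell in CD26+ CAFs, of 14. Slc40a1 (ferroportin), the exporter of cellular iron, fell from 25.1 ± 6.26 to 7.03 ± 2.22 CPM in CD26- cells (SD, n = 3 and 10). Its log2 fold was -1.84 ± 0.31 (edgeR adjusted p = 8.1e-05), and -1.54 ± 0.33 in CD26+ cells (0.00094). Flvcr2, a transporter of the same family as the heme exporter Flvcr1, fell in CD26- CAFs (log2 fold -3.69 ± 0.35, edgeR adjusted p = 7.5e-08) and in CD26+ CAFs (-2.24 ± 0.37, 8.58e-05). The ferritin heavy chain Fth1 had log2 folds of -0.14 ± 0.21 (edgeR adjusted p = 0.610) and 0.53 ± 0.22 (0.0548). The latter passed in 6 of 19 alternatives (adjusted p 0.0118 to 0.0462), among them DESeq2 and leaving out WB1P-Myc mouse 12 or control mouse 2. Fth1 was higher in CD26+ than in CD26- CAFs (0.49 ± 0.15, edgeR adjusted p = 0.0102, and 0.0597 without WB1P mouse 6). By tumor model it had 0.79 ± 0.21 in WB1P (edgeR adjusted p = 0.00813) and 0.19 ± 0.2 in WB1P-Myc (0.563). Hmox1, which frees iron from heme, was also higher in CD26+ CAFs (1.26 ± 0.35, edgeR adjusted p = 0.00649), and the ferroxidase Cp was lower (-0.90 ± 0.27, 0.0107). By tumor model Hmox1 had 1.72 ± 0.51 in WB1P (edgeR adjusted p = 0.0153) and 0.8 ± 0.48 in WB1P-Myc (0.268). Against NFs, Hmox1 passed in neither class (-0.93 ± 0.47, edgeR adjusted p = 0.119, and -0.34 ± 0.49, 0.603). Without WB1P mouse 5 it passed in both, with log2 folds of -1.24 (edgeR adjusted p = 0.00264) and -0.84 (0.0361). Cp did not pass against NFs either (-0.23 ± 0.37, edgeR adjusted p = 0.646, and -0.61 ± 0.37, 0.188).

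Of the 12 copper genes, 2 rose and 1 fell in CD26- CAFs and 5 rose and 1 fell in CD26+ CAFs. Slc31a1 (CTR1), the importer of reduced copper, had log2 folds of -0.15 ± 0.12 (edgeR adjusted p = 0.336) and 0.01 ± 0.12 (0.938). Sod3, the secreted copper-zinc superoxide dismutase, rose in CD26- CAFs (1.20 ± 0.30, edgeR adjusted p = 0.00259) and in CD26+ CAFs from 295 ± 81.1 to 950 ± 130 CPM (SD, n = 3 and 9; 1.69 ± 0.31, 0.00025). The copper pump Atp7a fell in CD26+ CAFs (-0.97 ± 0.32, edgeR adjusted p = 0.0182) and had -0.71 ± 0.31 in CD26- CAFs (0.0755). Without any one of the 3 control mice the Atp7a call in CD26+ CAFs was lost (edgeR adjusted p 0.0532 to 0.0747), and without WB1P mouse 6 the value in CD26- CAFs passed (0.00909). The metal-binding protein Mt2 was higher in CD26+ than in CD26- CAFs, at 661 ± 221 (SD, n = 9) against 226 ± 102 CPM (SD, n = 10), a log2 fold of 1.56 ± 0.23 (edgeR adjusted p = 1.43e-05). Against NFs, Mt2 had 0.90 ± 0.35 in CD26+ CAFs (edgeR adjusted p = 0.0456), a call lost in 11 of 19 alternatives, among them leaving out mouse 1, 2, 3, 6, 8, 9, 11 or 12 (adjusted p up to 0.15), and -0.39 ± 0.32 in CD26- CAFs (0.337).

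**Figure D5:**
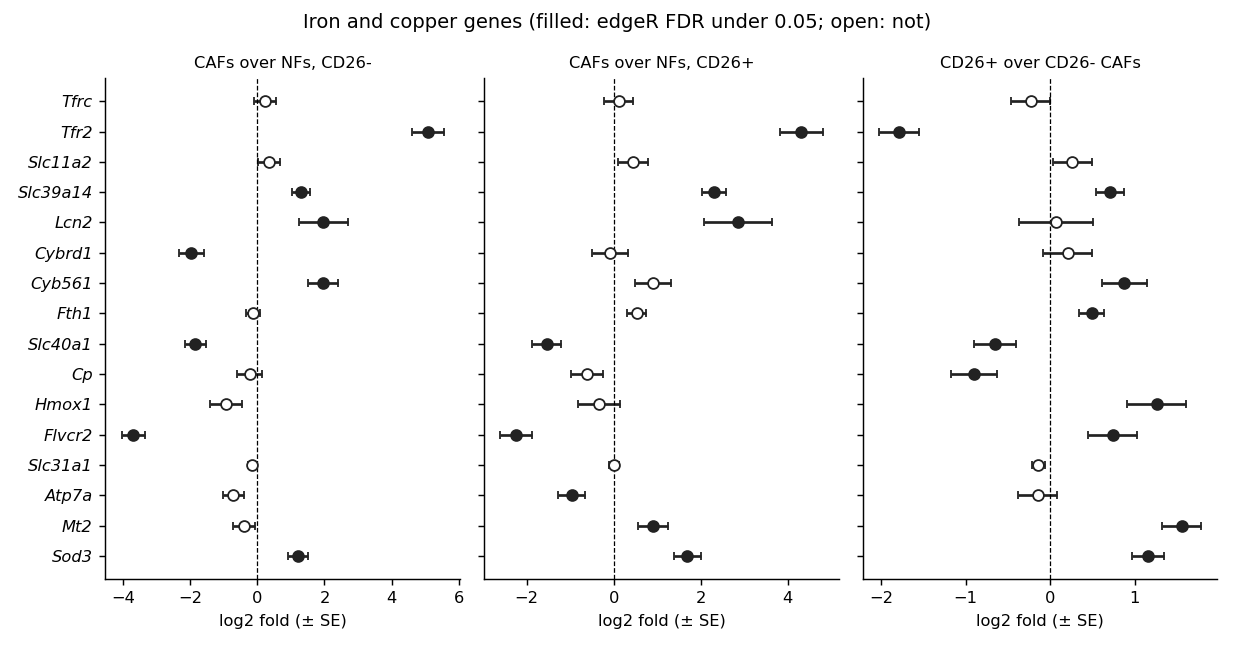
Log2 fold with bars of 1 SE for the named iron and copper genes in CAFs over NFs (CD26- and CD26+) and in CD26+ over CD26- CAFs, with filled points where the edgeR adjusted p was under 0.05. The x axes differ between panels, Tfr2 is the farthest to the right in both CAF comparisons, and Flvcr2 the farthest to the left.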

How the data were processed

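Stranded poly(A) RNA libraries of sorted fibroblasts were sequenced as paired ends. The deposited table holds raw counts by gene. The submitters' processing notes name HISAT2 2.2.1 and GRCm38 as what the authors used. The counter and annotation are not given in the sources used here. Of 55487 lines, 1 names no gene and holds 0 counts. Libraries held 5790599 to 15240328 counts (median 12818093), and 3 counts were taken as the floor, for counting error only. No pair of libraries of one group looked like copies. The full genotype of the control donors is not reported here.

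The 4 members and all gene lists were chosen with earlier results of these data known. Counts were summed per mouse and CD26 class (25 sums), filtered with filterByExpr, scaled by TMM and fitted with glmQLFit and glmQLFTest in edgeR 4.0.16 (limma 3.58.1, R 4.3.3) over all groups, with Benjamini-Hochberg adjustment over all genes and a threshold of 0.05. En1 lineage was tested on the 44 libraries (12 groups of condition and population). CPM are TMM-scaled. Fold changes are log2, and SE is derived from the quasi-likelihood F value. Sums of a mouse pair both CD26 classes: deviations from group means correlated in all 12 mice (r from 0.247 to 0.707). Exon lengths and strands came from GENCODE M21 (GRCm38), where 55226 genes were found, and promoters from RefSeq. The models were tested on simulated data, in which 187 to 199 of 200 genes with a 4-fold difference were recovered at FDR 0.05. False calls numbered 6 to 14 per comparison. The simulated counts were drawn independently, without the correlation within mice.

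Always named were the members, Dpp4, En1 and 10 iron and copper genes. Added were up to 3 list genes per direction and comparison with the largest fold among those that passed with at least 5 CPM, the 3 genes most like each member among tested genes with a mean of at least 5 CPM, and the nearest tested genes on chromosome 5. Rgs5 and some other cell type markers were named from the marker lists. Alternatives were DESeq2 1.42.0, its size factors, no filter, leaving out each mouse or both mice marked 8x8, separate fits, libraries as units, a replicate block by mouse, and transcript length.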

Additional observations from a re-analysis of the deposited data

Results flagged for a closer look

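The values of the members and the named iron and copper genes were searched for single mice far from their group, by Dixon's test at the 95% level, in 80 groups of 4 or 5 mice. Chance alone would give about 4.0 such values, and 7 were found. Steap4 in CD26+ WB1P CAFs was at 167 CPM in mouse 6, below the next mouse at 275 CPM, and that sum holds 1 library with 925 Steap4 counts. In the same class of WB1P, mouse 5 was the high value for Slc11a2 (185 CPM, next 76.1 CPM) and for Tfrc (63.5 CPM, next 24.6 CPM). In CD26- WB1P CAFs mouse 5 was again the high value, for Slc11a2 (157 CPM, next 78.5 CPM), Hmox1 (470 CPM, next 165 CPM) and Mt2 (410 CPM, next 193 CPM). Cybrd1 in CD26+ WB1P-Myc CAFs was at 4.46 CPM in mouse 12, with the next mouse at 1.84 CPM.

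The Steap4 difference between CD26 classes stood out because all 3 control mice went one way and all 4 WB1P mice with both classes the other, while WB1P mouse 4 has no CD26+ sum. The WB1P-Myc mice fell on both sides, with 3 of 5 higher in CD26+ cells and ratios of 0.637 to 4.47. The mean log2 ratio of CD26+ over CD26- within mice was -1.37 in control and 1.37 in WB1P mice, which is a difference of 2.74. This difference was not tested, as Steap4 was selected with these values in view.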

How the results depend on the processing

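Replicates are mice, and 3 control mice limit each comparison with NFs. Steap1 in NFs rests on 3 to 24 counts per sum. Of 1004 recomputed member folds 994 moved by less than the spread between mice. The exceptions were all Steap1 folds that involve control sums, on leaving out 1 mouse: CAFs over NFs in CD26- cells ran from 4.23 to 5.31, WB1P over NFs from 4.31 to 5.40, WB1P-Myc over NFs from 4.15 to 5.23, CD26+ over CD26- in NFs from 0.83 to 1.95, and the difference of CD26 folds from -1.02 to 0.11, with control mouse 1 or 3 at the ends. Of the 6 counts over all iron and copper genes together (counts of the separate lists were not recomputed), 1 moved by more than 1.5 times: without both mice marked 8x8, 3 in place of 5 genes were lower in CD26+ than in CD26- CAFs. The cause was not tested.

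No member passed the En1 test in either class under any alternative (0 of 4). Steap1 changed sign at values near 0: in CD26- cells to 0.05 without the 8x8 mice, and in CD26+ cells to 0.13 without control mouse 1 (range -0.16 to 0.13 over the mice left out). With mouse as a replicate block the Steap1 value in CD26+ cells was 0.0, and the counts for CD26+ over CD26- CAFs were 20 higher and 7 lower in place of 19 and 5. In CD26- cells the block changed the number of all genes called for En1 from 1 to 32, and in CD26+ cells from 2 to 6, as given above, and it changed no call of a member.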
